A study of Mus musculus with 6 samples.

Results

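Cadherins are calcium-dependent adhesion proteins that hold neighbouring cells together. The 10 genes described here were the cadherins of a fixed list of names, Cdh1, Cdh2, Cdh3, Cdh4, Cdh6, Cdh8, Cdh9, Cdh11, Cdh13 and Cdh19, taken by gene symbol from a table of 54532 genes. The list was selected on measured values in part, since it was proposed with the difference between the genotypes known, and the fold change of Cdh1 in particular. The difference between the genotypes is therefore given for these 10 genes as a description, and whether one of them passed the threshold set for the whole table is stated only as part of that description. Each of the 10 genes had a row and passed the filter on low counts, as 17099 genes of the table did.

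RNA was sequenced from sciatic nerve at postnatal day 3 (P3), in 3 control mice and 3 Dok6 mutants, with 1 library per mouse. The controls were wild type (WT), and the study calls its controls littermates. The Dok6 mutants (Dok6-/-) came from Dok6 fl/fl mice crossed with EIIA-cre mice, whose Cre acts in the early fertilized egg, so the deletion was not limited to 1 cell type, and Dok6 encodes an adaptor protein of neurotrophin receptor signaling. No drug was given to either group. The paper used this comparison to look for possible pathways downstream of DOK6, and it reported many genes of myelination as higher in the mutants. The libraries held between 17699904 and 18678170 counts. Levels are in CPM, counts scaled to a common library size (counts per M) with TMM factors, and 3 counts, the smallest level taken as detectable, came to between 0.156 and 0.172 CPM, with counting error alone considered.

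Dok6 was lower in the mutants, with 15.8 ± 3.32 CPM in controls and 6.73 ± 0.825 CPM in mutants (SD, n = 3 mice each). Its log2 fold change was -1.23 (SE 0.20), Benjamini-Hochberg adjusted p = 0.0118 by the quasi-likelihood test of edgeR. The labels name sciatic nerve, in which Schwann cells are the main glia, yet the summed level of 12 markers of the central nervous system ran from 1930 to 2730 CPM in controls and from 1760 to 2960 CPM in mutants, with none of the 12 at 0. These markers included Slc32a1, the transporter that fills inhibitory synaptic vesicles, at 172 ± 11.5 CPM in controls. The part of this RNA in the cadherin values was not tested. In bulk tissue, fewer cells of a type and less RNA per cell cannot be told apart, which holds for each difference below.

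Cadherins share a series of extracellular repeats with calcium ions bound between them, and most bind the same cadherin on the next cell. Type I members (Cdh1, Cdh2, Cdh3 and Cdh4 here) and type II members (Cdh6, Cdh8, Cdh9, Cdh11 and Cdh19) have a cytoplasmic tail that binds catenins and, through them, actin. Cdh13 has the repeats but no such tail, being held in the membrane by a lipid anchor, so it is not a classical cadherin in the strict sense. In peripheral nerve, E-cadherin (Cdh1) is known from the junctions that a myelinating Schwann cell makes with itself at the paranodes and incisures, N-cadherin (Cdh2) from contacts of immature Schwann cells and axons, and Cdh19 from the Schwann cell lineage.

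Of these genes, 5 lie on chromosome 8 of the mouse (GRCm38, GENCODE M21), in the order Cdh8 (chr8:99024471-99416471, minus strand), Cdh11 (chr8:102632095-102785642, minus strand), Cdh3 (chr8:106510891-106557297, plus strand), Cdh1 (chr8:106603351-106670246, plus strand) and Cdh13 (chr8:118283733-119324921, plus strand). Cdh3 and Cdh1 are 46.1 kb apart with 1 other coding gene between them. Cdh8 and Cdh11 are 3220 kb apart with 0 coding genes between them. Cdh6 (chr15:13028701-13173675, minus strand) and Cdh9 (chr15:16728756-16857094, plus strand) share chromosome 15, whereas Cdh4 (chr2:179442431-179899373, plus strand) and Cdh19 (chr1:110888326-110977584, minus strand) stand alone among these genes on their chromosomes.

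The coding sequences of relatives can share reads, so the longest exactly shared stretch was found for each of the 45 pairs of members. It ran from 11 to 26 bases, with a median of 15 bases. The longest, of 26 bases, was that of Cdh1 and Cdh2. The stretches of Cdh1 with Cdh4, Cdh13 and Cdh3 and that of Cdh6 with Cdh9 are shown for how little sequence a read from one of these genes has in common with the other. Those of Cdh1 with Cdh19 and Cdh8 are shown because they hold, as that with Cdh13 does, the letters AATGACAAC, marked in capitals, whereas those of Cdh1 with Cdh3, Cdh4, Cdh6, Cdh9 and Cdh11 do not.
Cdh1 and Cdh4: ttcaagaagctggcggacatgta
Cdh1 and Cdh13: attAATGACAACgctcctgtc
Cdh1 and Cdh3: ttttctacagcatcac
Cdh1 and Cdh19: gatattAATGACAAC
Cdh1 and Cdh8: gtcAATGACAACgc
Cdh6 and Cdh9: tggatgtggaatcagttcttcctc

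The stretch of Cdh1 and Cdh4 lies in exon 16, the last coding exon of both genes (chr8:106668571-106668593 and chr2:179895874-179895896, GRCm38, plus strand), which encodes the end of the catenin-binding tail. The stretch of Cdh1 and Cdh13 lies in exon 8 of Cdh1 (chr8:106658284-106658304, plus strand) and exon 12 of Cdh13 (chr8:119312552-119312572, plus strand). The marked letters read in frame as asparagine, aspartate and asparagine, which belong to the calcium-binding motif of the cadherin repeat. They occur in frame 3 times in the coding sequence of Cdh1, 2 times in that of Cdh4, 0 times in that of Cdh9 and 1 time in that of each other member. Searched on the transcript strand alone, they are in the longest transcript of 2.01% of 21877 coding genes. The stretch of Cdh6 and Cdh9 lies in exon 2 of both (chr15:13091692-13091715, minus strand, and chr15:16778260-16778283, plus strand).

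Cdh11 is the exception to this separation, although not through the other members. Parts of its transcript, 20.3% of its length, match 7 annotated genes over 200 bases or longer with an identity of 95% or higher, and these 7 genes held between 1256 and 1587 counts in all per library. Reads of Cdh11 and of these copies may have been exchanged, so its level is uncertain. None of the other 9 members had such a copy. Exons of Cdh8 overlap the antisense gene Gm15679 and those of Cdh9 overlap the antisense gene Gm49127, and whether strand was used in counting is not given in the sources used here.

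Per kilobase of the gene length given with the counts (RPKM), Cdh2 had the highest level of the 10 in control nerves, at 27.9 ± 0.884 RPKM (SD, n = 3 mice), and its lowest mouse was above each mouse of any other member. Cdh13 followed at 22.1 ± 1.32 RPKM, Cdh4 at 18.9 ± 1.53 RPKM and Cdh8 at 18.1 ± 1.51 RPKM, with the mice of each overlapping those of the next. Cdh6 (9.5 ± 0.909 RPKM) and Cdh11 (9.10 ± 1.59 RPKM) came next and overlapped each other. Cdh3 (4.29 ± 0.807 RPKM) overlapped Cdh9 (2.82 ± 1.34 RPKM). Cdh1 at 0.564 ± 0.119 RPKM and Cdh19 at 0.241 ± 0.0352 RPKM were the lowest, and their control mice did not overlap each other. Control levels were thus highest for the neural type I cadherin Cdh2 and lowest for Cdh1 and Cdh19.

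**Figure D1:**
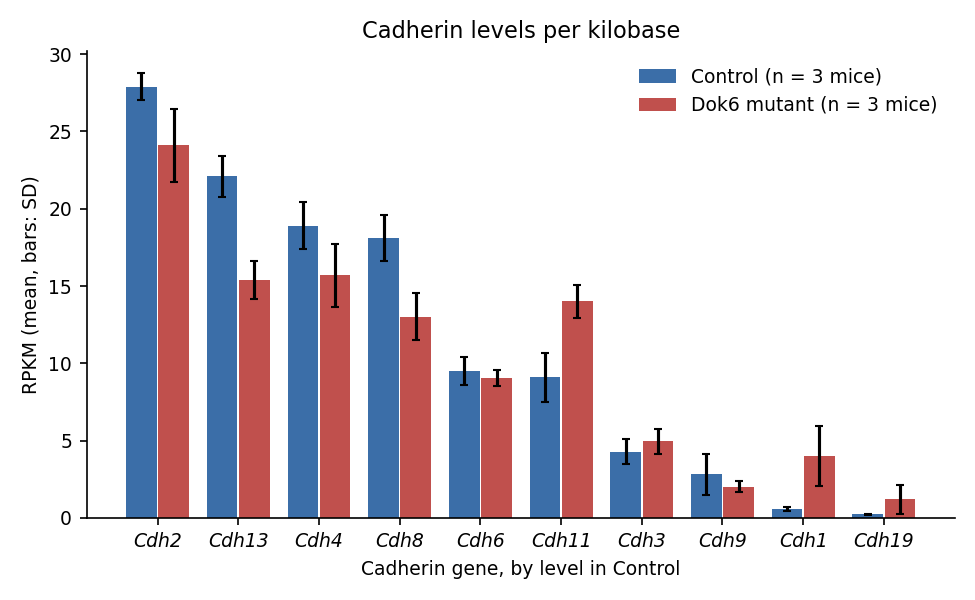
Level of each cadherin in RPKM (vertical axis) by gene (horizontal axis), as the mean of 3 control mice (blue) and 3 Dok6 mutant mice (red) with the SD as bars. Cdh2 is highest in both genotypes, and Cdh1 stands at 0.564 RPKM in controls and 4.0 RPKM in mutants.

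In the mutants the order differed in the middle and at the lower end. Cdh2 was again highest at 24.1 ± 2.38 RPKM, above Cdh4 (15.7 ± 2.05 RPKM), Cdh13 (15.4 ± 1.25 RPKM), Cdh11 (14 ± 1.07 RPKM) and Cdh8 (13.0 ± 1.52 RPKM), each of which overlapped the next. Cdh11 had rank 6 in controls and rank 4 in mutants. Cdh6 was at 9.07 ± 0.525 RPKM and Cdh3 at 4.95 ± 0.810 RPKM. Cdh1, at 4.0 ± 1.95 RPKM, overlapped Cdh3 and lay above Cdh9 (2.01 ± 0.370 RPKM), which it lay below in controls. Cdh19 remained lowest at 1.19 ± 0.929 RPKM. Ranked by CPM instead, which favours long genes, Cdh13 stood first and Cdh2 second in controls.

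Summed over the 10 genes, the level was 111, 113 and 117 RPKM in control mice and 102, 100 and 108 RPKM in mutant mice, so the mutants lay below the controls. The 5 type II genes summed to 37.6, 38.5 and 43.1 RPKM in controls and 38.9, 39.0 and 40.1 RPKM in mutants, and the groups overlapped. The 4 type I genes likewise overlapped, with 50.7 to 52.8 RPKM in controls and 47.0 to 51.8 RPKM in mutants. Within the sum, Cdh1 made up 0.396%, 0.512% and 0.578% in controls and 2.58%, 6.24% and 2.89% in mutants. Cdh13 made up 18.6% to 20.3% in controls and 14.1% to 15.5% in mutants.

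Between the genotypes, 3 of the 10 genes were called higher in the mutants (Cdh1, Cdh11 and Cdh19) and 2 were called lower (Cdh8 and Cdh13) at an adjusted p under 0.05 over the 17099 genes tested, while 5 were not called. Over all genes tested, 8.62% were called higher and 6.01% lower by the same threshold. With the study's further threshold of a log2 fold change above 2, Cdh1 and Cdh19 were called, as were 1.08% of all genes tested in the same direction. For 3 members every mutant mouse lay above every control mouse and for 4 every mutant lay below every control, against 19.6% and 18.7% of all genes tested. The members were chosen with this contrast known, so nothing is read from these counts. The median log2 fold change was -0.14 over the 10 genes and 0.01 over all genes tested.

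The calls rested in part on single libraries. Without control mouse 2, 0 of the 10 genes were called by edgeR in either direction, and only 56 genes of the whole table were called higher and 12 lower. The log2 fold changes without that mouse were 2.84 for Cdh1, 0.52 for Cdh11, 2.18 for Cdh19, -0.40 for Cdh8 and -0.50 for Cdh13, so their directions stayed. Cdh1 and Cdh13 were called when any other mouse was left out. Cdh8 was not called without mutant mouse 1 or 2, and Cdh11 was not called without control mouse 1 or without mutant mouse 1 or 2. Cdh19 was not called without control mouse 1 or 3 or mutant mouse 2, nor by limma voom. Without mutant mouse 3, Cdh2 was also called lower.

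**Figure D2:**
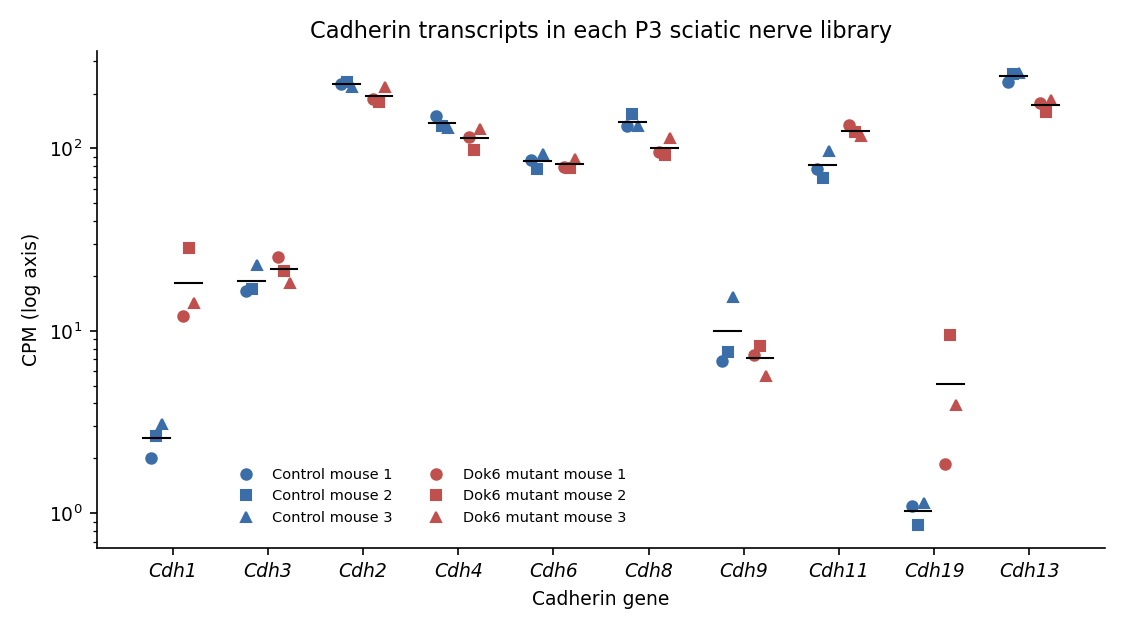
CPM on a log axis (vertical) of each cadherin (horizontal) in each mouse, with control mice in blue and Dok6 mutant mice in red, a different symbol for mouse 1, 2 and 3, and black lines for the mean of 3 mice. The 3 mutants lie above the 3 controls for Cdh1, Cdh11 and Cdh19 and below them for Cdh2, Cdh4, Cdh8 and Cdh13.

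Cdh1 (ENSMUSG00000000303), the E-cadherin of epithelia and of the self-contacts of myelinating Schwann cells, had 2.01, 2.64 and 3.09 CPM in control mice 1, 2 and 3 and 12.1, 28.5 and 14.3 CPM in mutant mice 1, 2 and 3. These levels rest on 35, 46 and 54 counts in controls and on 233, 523 and 270 counts in mutants, and the controls were well above the floor of 3 counts. The lowest mutant lay far above the highest control, and mutant mouse 2 was the highest. The means were 2.58 ± 0.542 and 18.3 ± 8.92 CPM (SD, n = 3 mice each), and the log2 fold change was 2.82 (SE 0.35), or 7.08-fold. Without mutant mouse 2 the log2 fold change was 2.35, and it reached 3.05 without mutant mouse 1.

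Cdh3, the P-cadherin of placenta and basal epithelium and the nearest member to Cdh1 on the chromosome, did not share this difference. It had 16.6, 16.9 and 22.9 CPM in control mice and 25.4, 21.4 and 18.3 CPM in mutant mice, and the groups overlapped. Its log2 fold change was 0.21 (SE 0.17). Mutant mouse 2, the highest for Cdh1, lay between the other mutants for Cdh3.

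Cdh2, the N-cadherin of neural tissue and the one member on chromosome 18 (chr18:16588877-16809246, minus strand), which also carries Dok6, had 225, 232 and 217 CPM in control mice and 187, 180 and 216 CPM in mutant mice. The highest mutant lay just under the lowest control, and the difference was small at a log2 fold change of -0.21 (SE 0.09). Cdh4, the R-cadherin first known from retina, had 150, 132 and 129 CPM in control mice and 115, 98.1 and 128 CPM in mutant mice. Mutant mouse 3 came close to the lowest control, and the log2 fold change was -0.27 (SE 0.11). Neither gene was called with all 6 mice.

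Among the type II members, Cdh19 had 1.09, 0.860 and 1.14 CPM in control mice and 1.87, 9.55 and 3.92 CPM in mutant mice, which rest on 15 to 20 counts in controls and on 36, 175 and 74 counts in mutants. The mutants lay above the controls, and they differed among themselves by 5.11-fold, with mutant mouse 2 the highest as for Cdh1. The log2 fold change was 2.30 (SE 0.56), or 4.92-fold, and it was 1.48 without mutant mouse 2.

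Cdh11, known from osteoblasts, fibroblasts and other mesenchyme, had 77.3, 69.1 and 96.7 CPM in control mice and 135, 123 and 117 CPM in mutant mice. The groups did not overlap, and mutant mouse 2 did not stand apart here. The log2 fold change was 0.62 (SE 0.13), or 1.54-fold, within the uncertainty from its copies. The summed counts of those 7 copies ran from 1256 to 1587 per library, and those of Cdh11 from 1206 to 2606. The part of exchanged reads in the Cdh11 difference was not tested.

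Cdh8, a cadherin of neurons and their synapses, had 133, 154 and 133 CPM in control mice and 96.0, 92.6 and 114 CPM in mutant mice. Every mutant lay below every control, with a log2 fold change of -0.47 (SE 0.10), and controls were 1.39-fold above mutants on average. Cdh6, found in kidney and in subsets of neurons, had 86.0, 77.4 and 93.8 CPM in control mice and 79.6, 78.6 and 87.3 CPM in mutant mice. Its groups overlapped, with a log2 fold change of -0.07 (SE 0.09) that turned to 0.01 without control mouse 3.

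Cdh9, a neuronal cadherin known from synapses of the hippocampus, had 6.83, 7.62 and 15.4 CPM in control mice and 7.42, 8.24 and 5.67 CPM in mutant mice. Control mouse 3 stood apart at 15.4 CPM, and the other control mice lay among the mutants. The log2 fold change of -0.49 (SE 0.31) came to -0.02 without control mouse 3, so the difference in means rests on that mouse.

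Cdh13, the lipid-anchored T-cadherin of neurons, heart and vessels, had 231, 256 and 258 CPM in control mice and 178, 158 and 185 CPM in mutant mice. The groups were separated by a gap wider than the spread within the controls. The means were 248 ± 14.8 and 174 ± 14 CPM (SD, n = 3 mice each), and the log2 fold change was -0.52 (SE 0.09), with controls 1.43-fold above mutants.

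**Figure D3:**
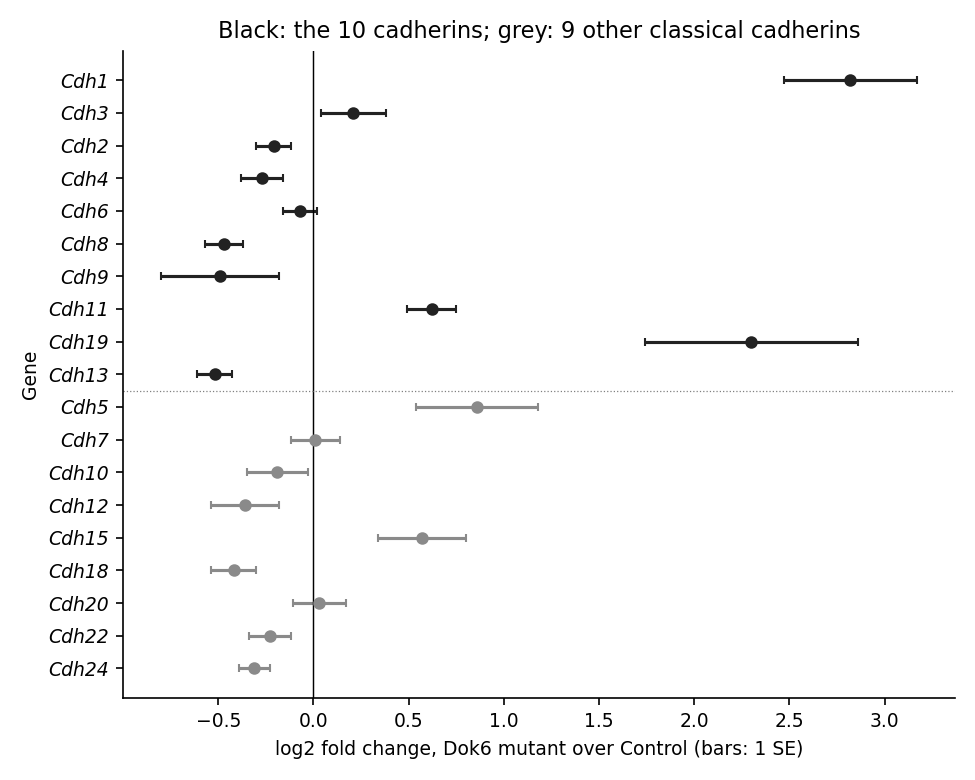
log2 fold change of Dok6 mutant over control (horizontal axis) with 1 SE as bars, for the 10 cadherins (black) and 9 other classical cadherins (grey), 1 gene per line. Cdh1 at 2.82 and Cdh19 at 2.30 stand apart, and the other 17 genes lie between -0.52 and 0.86.

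The other classical cadherins of the genome that were measured numbered 9 (Cdh5, Cdh7, Cdh10, Cdh12, Cdh15, Cdh18, Cdh20, Cdh22 and Cdh24), and 2 of them (22.2%, against 6.01% of all genes tested) fell in the mutants by the same test and adjustment. Cdh18, a neuronal type II cadherin, fell from 30.9 ± 3.51 to 23.1 ± 1.79 CPM, with a log2 fold change of -0.42 (SE 0.12) and adjusted p = 0.0497. Cdh24 fell from 92.4 ± 1.35 to 74.8 ± 6.04 CPM, with a log2 fold change of -0.31 (SE 0.08) and adjusted p = 0.0433. None of the 9 was called higher by edgeR, DESeq2 or limma voom, and 2 were higher at an unadjusted p under 0.05 in edgeR, while edgeR called 1 higher with no filter or without control mouse 1. Of the calls of a fall, 1 was lost by limma voom, with upper-quartile scaling, with no filter, with at least 10 counts in every library and without control mouse 1, and both were lost without control mouse 2 or 3 or mutant mouse 1 or 2. No classical cadherin outside the 10 had a log2 fold change above 0.86.

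Catenins link the cadherin tail to actin and hold it at the membrane. Of 18 catenins and junction partners, 4 rose (22.2%) and 1 fell (5.56%), against 8.62% and 6.01% of all genes tested. The list was chosen with earlier results of these data known, so nothing is read from either count. The median log2 fold change of the 18 genes was 0.13, against 0.01 over all genes tested. Ctnnb1 (β-catenin), which binds the tail directly, had 485 ± 3.67 CPM in controls and 524 ± 42.2 CPM in mutants, with a log2 fold change of 0.11 (SE 0.09) and adjusted p = 0.408. Ctnnd1 (p120-catenin), which holds cadherins at the membrane, had 18.4 ± 2.20 and 19.8 ± 3.39 CPM, with a log2 fold change of 0.11 (SE 0.16) and adjusted p = 0.673. Neither was called, whereas Jup (plakoglobin), a relative of β-catenin that binds the same tail, rose from 37.3 ± 7.11 to 61.2 ± 10.6 CPM (log2 fold change 0.71, SE 0.17, adjusted p = 0.0295).

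Ctnna1 (αE-catenin), the link from β-catenin to actin, rose from 57.8 ± 8.90 to 99.8 ± 16.0 CPM, with a log2 fold change of 0.79 (SE 0.14) and adjusted p = 0.0153 by edgeR. Vcl (vinculin), which joins it under tension, rose by a log2 fold change of 0.67 (SE 0.13, adjusted p = 0.0171). Vezt (vezatin) rose from 42.6 ± 1.52 to 66.2 ± 1.63 CPM, a log2 fold change of 0.64 (SE 0.08, adjusted p = 0.00716). The neural Ctnnd2 (δ-catenin) fell from 371 ± 24.1 to 299 ± 2.62 CPM (log2 fold change -0.31, SE 0.08, adjusted p = 0.0369). Without control mouse 2 none of these 18 genes was called by edgeR, although 4 higher and 1 lower had an unadjusted p under 0.05. The fall of Ctnnd2 was also not called without control mouse 3 or mutant mouse 1 or 2, and without mutant mouse 3 there were 2 genes called lower.

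**Figure D4:**
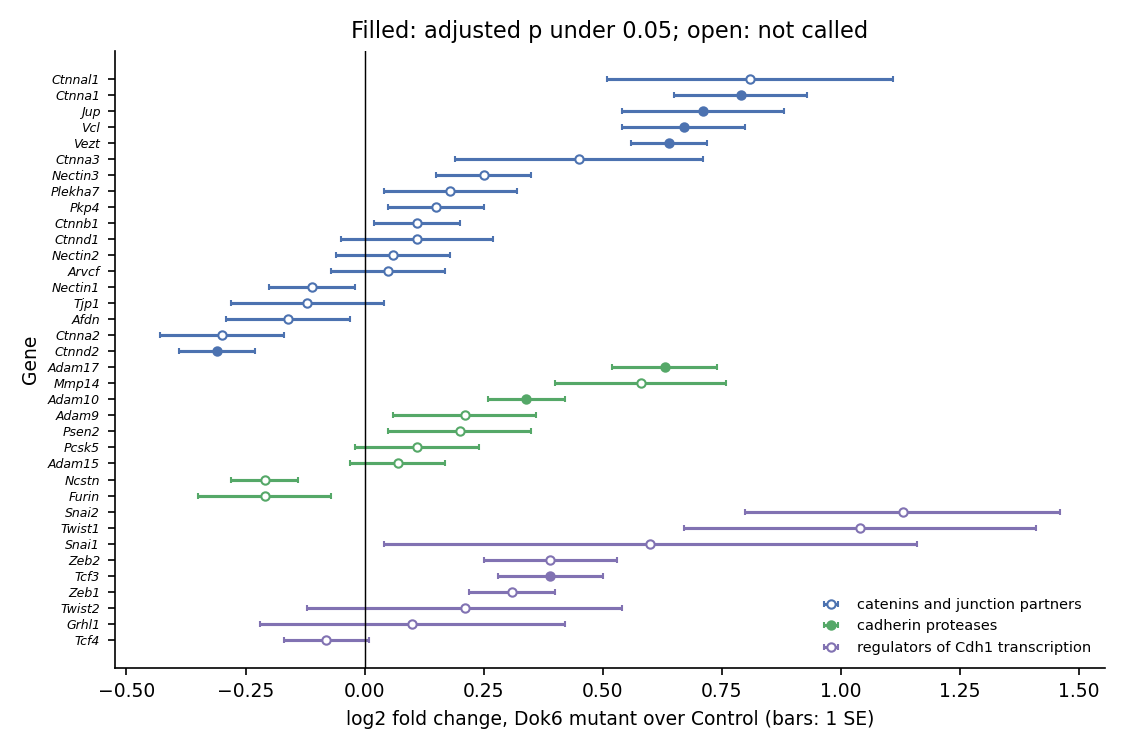
log2 fold change of Dok6 mutant over control (horizontal axis) with 1 SE as bars, for 18 catenins and junction partners (blue), 9 of the 10 proteases that act on cadherins (green) and 9 regulators of Cdh1 transcription (purple), with filled symbols for an adjusted p under 0.05. Ctnna1 at 0.79, Adam17 at 0.63 and Tcf3 at 0.39 are among the filled symbols.

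Cadherins are shed by surface proteases and the rest is cut in the membrane by γ-secretase. Of 10 such genes, 3 rose (30%, against 8.62% of all genes tested) and 0 were called lower by edgeR, DESeq2 or limma voom, with 1 lower at an unadjusted p under 0.05 in edgeR. This list too was chosen with earlier results of these data known, so nothing is read from these counts. Adam10, which sheds E-cadherin and N-cadherin, rose from 91.8 ± 5.41 to 116 ± 6.26 CPM (log2 fold change 0.34, adjusted p = 0.0281). Adam17, another shedding protease, rose from 25.3 ± 2.75 to 39.0 ± 2.97 CPM (log2 fold change 0.63, adjusted p = 0.0153). The count of 3 was 0 without control mouse 2 or mutant mouse 2, 2 without control mouse 3, 1 without mutant mouse 1 and 5 without mutant mouse 3.

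Of 14 listed regulators of Cdh1 transcription, 9 passed the filter and 5 did not (Snai3, Grhl2, Ovol1, Ovol2 and Elf3). Tcf3, whose E proteins repress Cdh1, was the single gene called (11.1% of those tested, near the 8.62% of all genes, so no result about the list), and it rose from 50.6 ± 4.12 to 66.2 ± 7.30 CPM with a log2 fold change of 0.39 (SE 0.11) and adjusted p = 0.0472 by edgeR. A further 4 were higher at an unadjusted p under 0.05. None was lower by edgeR, DESeq2 or limma voom at an adjusted p under 0.05, and 0 were lower at an unadjusted p under 0.05 in edgeR. The call was lost by limma voom, without control mouse 2 or 3, and without mutant mouse 1 or 2, whereas 4 genes were called without mutant mouse 3.

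By the mean absolute difference of log2 CPM, each gene centred on its own mean over the 6 libraries, the genes most like Cdh1 among 15675 candidates were P2ry2 (0.201), Gm13111 (0.248), Tnnt1 (0.253), Tspan8 (0.286) and Ppm1j (0.297). P2ry2 encodes a purinergic receptor and had 0.689, 0.688 and 1.03 CPM in control mice and 2.49, 8.40 and 3.92 CPM in mutant mice, again with mutant mouse 2 highest. Tnnt1 encodes the troponin T of slow muscle. In control mice 1, 2 and 3, Tnnt1 had 0.172, 0.229 and 0.515 CPM and Tspan8 had 0.172, 0.401 and 0.286 CPM. These control values lie at or near the floor of 3 counts, and both genes passed the filter through the mutants, where they are high. Among the members, Cdh19 was nearest to Cdh1 at 0.410, followed by Cdh11 at 1.03, whereas the median candidate was at 1.344. The 6 points of such a profile share their libraries, so likeness is a description.

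Markers of several cell types were summed in each library as values to set beside Cdh1, Cdh11, Cdh13 and Cdh19. The marker lists were chosen with earlier results of these data known, so nothing is read from their counts of genes called. The Schwann lineage list of 14 genes summed to 368, 258 and 1080 CPM in control mice and 1050, 5320 and 466 CPM in mutant mice, and 7 of the 14 were called higher in the mutants, against 8.62% of all genes tested. Mutant mouse 2, with the highest Cdh1 and Cdh19, also had the highest sum of this list. Control mouse 3, with 1080 CPM, had 3.09 CPM of Cdh1, and mutant mouse 3, with 466 CPM, had 14.3 CPM of Cdh1. The part of Schwann cells in these differences was not tested.

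Epithelial markers, which Cdh1 accompanies in most organs, summed to 27.3, 25.7 and 26.2 CPM in control mice and 80.8, 19.6 and 24.3 CPM in mutant mice over 15 genes. Most of the sum in controls came from Perp and Krt10, named after their values were seen. Over the other 13 genes it was 7.0, 5.51 and 7.2 CPM in control mice and 63.8, 6.55 and 8.01 CPM in mutant mice, so mutant mice 1 and 3 lay above the controls and mutant mouse 2 among them. The part of epithelial cells in the Cdh1 difference was not tested. None of the 6 epithelial markers tested was called by edgeR or limma voom, whereas DESeq2 called 1 of the 6 higher (Krt19), and 2 were higher and 1 lower at an unadjusted p under 0.05 in edgeR. No marker of the list was at 0 in every library. The perineurium list of 7 genes summed to 61.8 to 142 CPM in controls and 117 to 194 CPM in mutants, with 1 of 6 genes tested called higher, against 8.62% of all genes tested, so this count is no result about the list.

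The mesenchyme and fibroblast list of 9 genes, cells in which Cdh11 is known, summed to 1220, 534 and 340 CPM in control mice and 2400, 3200 and 2060 CPM in mutant mice, with 5 of 9 called higher, against 8.62% of all genes tested, a share that also stands beside the counts of the next lists. The endothelial list of 8 genes ran from 178 to 315 CPM in controls and from 300 to 455 CPM in mutants, with 4 called higher. Skeletal muscle markers summed to 24.3, 23.7 and 17 CPM in control mice and 591, 302 and 110 CPM in mutant mice, with Tnnc2 at 0 in every library. Of the muscle list of 10 genes, 3 did not pass the filter and 6 were called higher, some of which passed it through the mutants, where they are high, as Ckm (16, 9 and 2 counts in control mice, named after its values were seen) did. Sensory neuron markers summed to 1700 to 1780 CPM in controls and 1500 to 2520 CPM in mutants, with 9 of 12 called higher. Among those called, Mrgprd (0, 2 and 1 counts in control mice) and Trpv1 (8, 7 and 6 counts) passed the filter through the mutants alone. Both are likewise named after their values were seen. Most of the sum of the sensory neuron list was Tubb3, a tubulin of neurons in general, named after its values were seen. Over the other 11 genes the sum was 291, 229 and 234 CPM in control mice and 430, 1070 and 1030 CPM in mutant mice, with no overlap. The central nervous system list, which had 1 of 12 genes called lower, near the 6.01% of all genes tested and so no result about the list (Slc32a1, log2 fold change -0.32, adjusted p = 0.0487 by edgeR), overlapped between the genotypes. The part of each of these cell types in the cadherin differences was not tested.

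**Figure D5:**
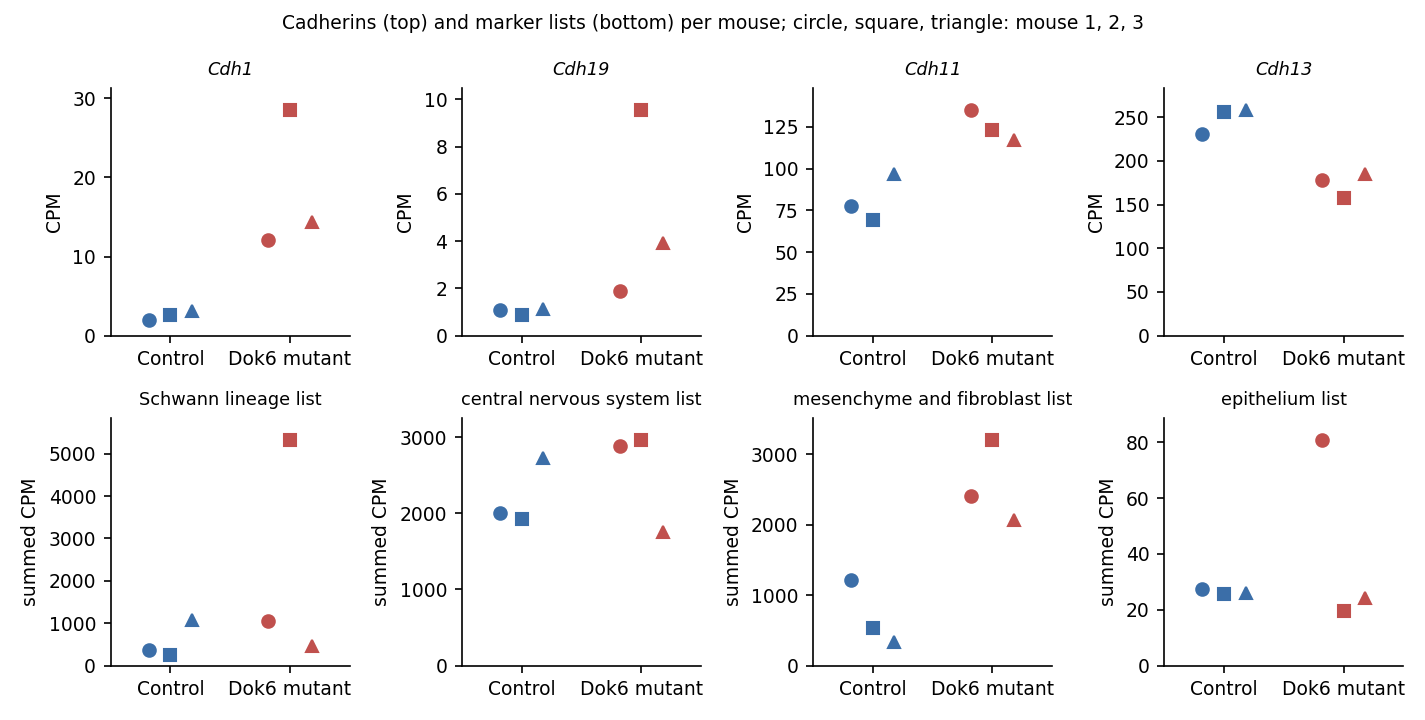
CPM of Cdh1, Cdh19, Cdh11 and Cdh13 (top row, vertical axes) and summed CPM of 4 marker lists (bottom row) in each mouse, with control mice in blue, Dok6 mutant mice in red, and a circle, square and triangle for mouse 1, 2 and 3. Mutant mouse 2 is highest for Cdh1 (28.5 CPM), Cdh19 (9.55 CPM) and the Schwann lineage list (5320 CPM), whereas mutant mouse 1 is highest for the epithelium list (80.8 CPM).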

How the data were processed

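Counts per gene were used as the authors deposited them, 1 column per mouse, not normalized, with a gene length beside them. The submitters' processing notes name the mm10 build. The aligner, the counting tool, the read length and the use of strand are not given in the sources used here. The labels name the NEBNext Ultra RNA kit and the study's methods its directional form. The study's own test was DESeq2 with an adjusted p under 0.05 and a log2 fold change above 2. The labels also call the material primary cells of the nerve cell type.

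Genes were kept by filterByExpr of edgeR 4.0.16 (R 4.3.3) with genotype as group (17099 of 54532 genes), scaled by TMM and fitted by glmQLFit and glmQLFTest over the 6 libraries without a block. The Benjamini-Hochberg adjustment ran over the whole set that passed the filter. The SE of a log2 fold change came from the F statistic. The biological coefficient of variation was 16.6%, and 23567 genes had no count in any library. Every pair of libraries differed by more than sampling noise (chi-square per degree of freedom 9.47 to 58.3).

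The members and the lists of partners, proteases, regulators and markers were chosen with earlier results of these data known. Named beside the members are list genes with an adjusted p under 0.05 (at most 6 per list and direction), 4 catenins, Dok6, and the 5 genes most like Cdh1 among those that passed the filter with a mean of at least 1 CPM. For likeness, log2 CPM used a prior count of 2. Marker lists were used for their sums and counts, and Slc32a1 is the 1 marker given with a test. Sums without Perp and Krt10 or without Tubb3 were added after the data were seen. Some genes of the lists are not reported here by name.

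The results were recomputed with limma 3.58.1 voom and DESeq2 1.42.0, with upper-quartile or RLE scaling, without the filter or with a minimum of 10 counts per library, with the replicate number as a block, and without each mouse in turn. The procedures were tested on simulated counts. Of the identifiers, 54409 are in GENCODE M21 (GRCm38) and 123 are not. Copies were sought with BLAST 2.17.0.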

Additional observations from a re-analysis of the deposited data

How the results depend on the processing

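The log2 fold changes of the 10 cadherins moved by less than 1 SD between replicates in 130 of 130 alternative values. Of these, 129 kept their sign, the exception being Cdh6 at 0.01 without control mouse 3. The SD included the mouse left out, which widens it, so for mice left out this limit could hardly be passed and shows little. The log2 fold change of Cdh19 was 2.30 with all mice and 1.48 without mutant mouse 2, which counted as unmoved. That of Cdh1 ran from 2.72 to 2.83 over scalings, filters, tests and the replicate block, and from 2.35 to 3.05 over mice left out. The median log2 fold change of all genes was 0.013 with TMM, 0.004 with RLE and 0.015 with upper-quartile scaling, and 0.032 with no filter.

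Same-numbered mice did not deviate from their genotype means together (correlations of -0.0017, -0.23 and -0.3 for numbers 1, 2 and 3), so the numbers were not taken as pairs. With the replicate block, 432 genes were called higher and 130 lower, among them 1 member higher (Cdh1) and 1 lower (Cdh13), 2 catenins and partners higher and 0 lower, 0 other classical cadherins lower, 0 regulators, 0 proteases, and 1 non-classical cadherin higher and 0 lower. Other classical cadherins called lower numbered 1 with upper-quartile scaling, with no filter, with at least 10 counts in every library and with limma voom, and 1 was called higher with no filter. Regulators called higher numbered 3 with no filter, 3 with at least 10 counts in every library and 0 with limma voom. Non-classical cadherins called lower numbered 4 with DESeq2 and 4 with limma voom. The cause was not tested, except that the block leaves fewer residual degrees of freedom.

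Over mice left out, the calls ran from 56 to 1671 higher and from 12 to 1233 lower over all genes, from 0 to 3 higher and 0 to 3 lower for the members, from 0 to 5 higher and 0 to 2 lower for catenins and partners, from 0 to 1 higher and 0 to 2 lower for other classical cadherins, from 0 to 4 higher for regulators, from 1 to 3 higher and 0 to 5 lower for non-classical cadherins, and from 0 to 5 higher for proteases. With 3 mice a genotype, Cdh1 and Cdh19 rest on 35 to 54 and on 15 to 20 counts per control library, so counting error is part of their spread.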

Other observations

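Beyond the classical cadherins, 30 of 35 listed members of the wider superfamily (protocadherins, Fat and Dachsous proteins, calsyntenins, Celsr receptors and desmosomal cadherins) passed the filter, and 3 rose and 2 fell in the mutants by the quasi-likelihood test of edgeR (Benjamini-Hochberg adjusted p under 0.05). These shares, 10% and 6.67%, are near the 8.62% and 6.01% of all genes tested, so the counts are no result about the list. Their median log2 fold change was -0.06. Pcdh1, a protocadherin also known from airway epithelium, rose from 76.1 ± 18.9 to 189 ± 4.07 CPM (SD, n = 3 mice each), with a log2 fold change of 1.31 (SE 0.16) and adjusted p = 0.00716 by edgeR. Pcdh12, the protocadherin of endothelium, rose from 1.83 ± 0.852 to 5.68 ± 1.41 CPM (log2 fold change 1.63, SE 0.35, adjusted p = 0.0228). Fat2 had 5, 2 and 6 counts in control mice and 26, 23 and 17 counts in mutant mice, so it passed the filter through the mutants alone, where it is high. With at least 10 counts required in every library it was not tested, and 2 genes of the list were called higher.

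The neuronal protocadherins Pcdh8 and Pcdh9 fell. Pcdh8 went from 107 ± 4.97 to 73.1 ± 12.6 CPM (log2 fold change -0.55, SE 0.12, adjusted p = 0.0247 by edgeR), and Pcdh9 from 211 ± 11.7 to 166 ± 10 CPM (log2 fold change -0.34, SE 0.08, adjusted p = 0.0282). The count of 3 that rose was 1 without control mouse 1 or 2 or without mutant mouse 1 or 2. The count of 2 that fell was 0 without any of those 4 mice and 5 without mutant mouse 3. The other 5 listed genes, Cdh16, Cdh17, Cdh26, Cdhr4 and Cdhr5, did not pass the filter.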
